A study of Mus musculus with 12 samples.

Results

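The 10 genes described here are the muscle ubiquitin ligases *Fbxo32*, *Trim63*, *Trim54*, *Fbxo30* and *Fbxo21*, the transcription factors *Foxo1*, *Foxo3*, *Foxo4* and *Klf15*, and the secreted ligand *Mstn*. They were taken by name from the 55367 gene symbols listed for each sample, and all 10 passed the filter on low values. RNA was sequenced from isolated fibers of the mouse extensor digitorum longus (EDL), a hindlimb muscle made almost only of fast fibers, in 12 samples. The 4 young samples came from mice 3–4 months old. The other samples came from mice 26–28 months old, whose fibers were sorted by their staining with the calcium dye Fluo-4 into 4 Fluo-4 normal and 4 Fluo-4 abnormal samples. The mice in which abnormal staining was described were male, no strain, transgene or drug was named in the labels, and the fibers of all groups were isolated before RNA was taken. How many fibers or mice stand behind a sample is not given in the sources used here, so the p-values measure the spread between these samples, which may be technical.

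Skeletal muscle breaks down its proteins largely by tagging them with ubiquitin, and E3 ligases choose what is tagged. In atrophy, FoxO transcription factors switch on several of these ligases, whereas insulin and IGF-1 act through the kinase Akt to keep FoxO proteins out of the nucleus. Myostatin, a ligand of the TGF-beta family made by muscle itself, restrains muscle mass through activin receptors and SMAD proteins, and glucocorticoids add to the program through KLF15. Because FoxO proteins are controlled by phosphorylation and location, their mRNA level is a separate quantity from their activity.

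Expression was given in TPM, a unit corrected for transcript length, so levels can be set beside each other between genes. No read counts were used here, so the depth behind a value is unknown. Markers of the fiber itself were high in all samples, and the 8 myofiber markers summed to 136319–180203 TPM. The 7 immune markers, of which 0 were at 0 in all samples, summed to 2.07–4.01 TPM in young, 6.21–19.9 in Fluo-4 normal and 9.74–17.8 in Fluo-4 abnormal fibers. *Lyz2* was the largest of them in every aged sample, at 4.58–13.8 TPM against 0.269–1.04 TPM in young. *Cd3e* was at 2.10–4.86 TPM in abnormal, 0.608–0.854 TPM in normal and 0.780–1.54 TPM in young fibers. *Ptprc*, *Adgre1* and *Csf1r* reached at most 0.262, 0.011 and 0.385 TPM in any sample. The 7 endothelial markers summed to 4.05–31.8 TPM and the 7 fibroblast markers to 13.6–83.1. Of 5 adipocyte markers, 4 (*Adipoq*, *Plin1*, *Lep* and *Cidec*) were at 0 in all samples, whereas *Fabp4* was at 8.28–109 TPM. In samples of this kind, more cells of a type and more RNA per cell cannot be told apart. *Myh4*, the myosin of the fastest fibers, made up 98.9% to 99.7% of the 4 adult myosin heavy chains in Fluo-4 abnormal, 93.7% to 99.2% in Fluo-4 normal and 96.9% to 98.6% in young fibers. *Myh4* itself was higher in Fluo-4 abnormal than in normal fibers (log2 change 0.66, limma adjusted p = 0.0198), and *Myh1* (-1.81, adjusted p = 0.0870), *Myh2* (-0.37, adjusted p = 0.732) and *Myh7* (0.15, adjusted p = 0.108) were not called. Scaling factors that balance most genes between samples (TMM type) were 1.06–1.17 in Fluo-4 abnormal, 0.809–0.998 in Fluo-4 normal and 0.908–1.04 in young fibers. With these factors the median log2 change of all 14429 genes tested between Fluo-4 abnormal and normal fibers moved from 0.10 to 0.00. The share of called genes that were higher then fell from 78.7% to 36.1%, and between Fluo-4 abnormal and young fibers from 71.6% to 39.2%. With them *Myh4* had a change of 0.44 (adjusted p = 0.181), and over 21 alternatives its call was lost in 7, among them those without Fluo-4 normal replicate 1 (0.0528) and without Fluo-4 abnormal replicate 2 (0.0761) or 3 (0.0606). The part of the myosin mix and of the scaling in the results was not tested beyond these fits.

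The 10 genes spanned a wide range of levels. *Trim54* was the most abundant, with a mean of 521 TPM over the 12 samples, followed by *Trim63* at 208 TPM. *Fbxo32* (53.9 TPM), *Mstn* (47.9 TPM) and *Klf15* (45.4 TPM) came next, and their values overlapped within each group. *Fbxo30* had a mean of 12.1 TPM, *Fbxo21* 4.96 TPM and *Foxo1* 2.75 TPM, whereas *Foxo3* (0.434 TPM) and *Foxo4* (0.229 TPM) stayed below 1 TPM in all samples. *Trim54* alone held 57.8% to 75.0% of the summed TPM of the 5 ligases, *Trim63* 19.1% to 32.7% and *Fbxo32* 4.52% to 8.90%.

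**Figure D1:**
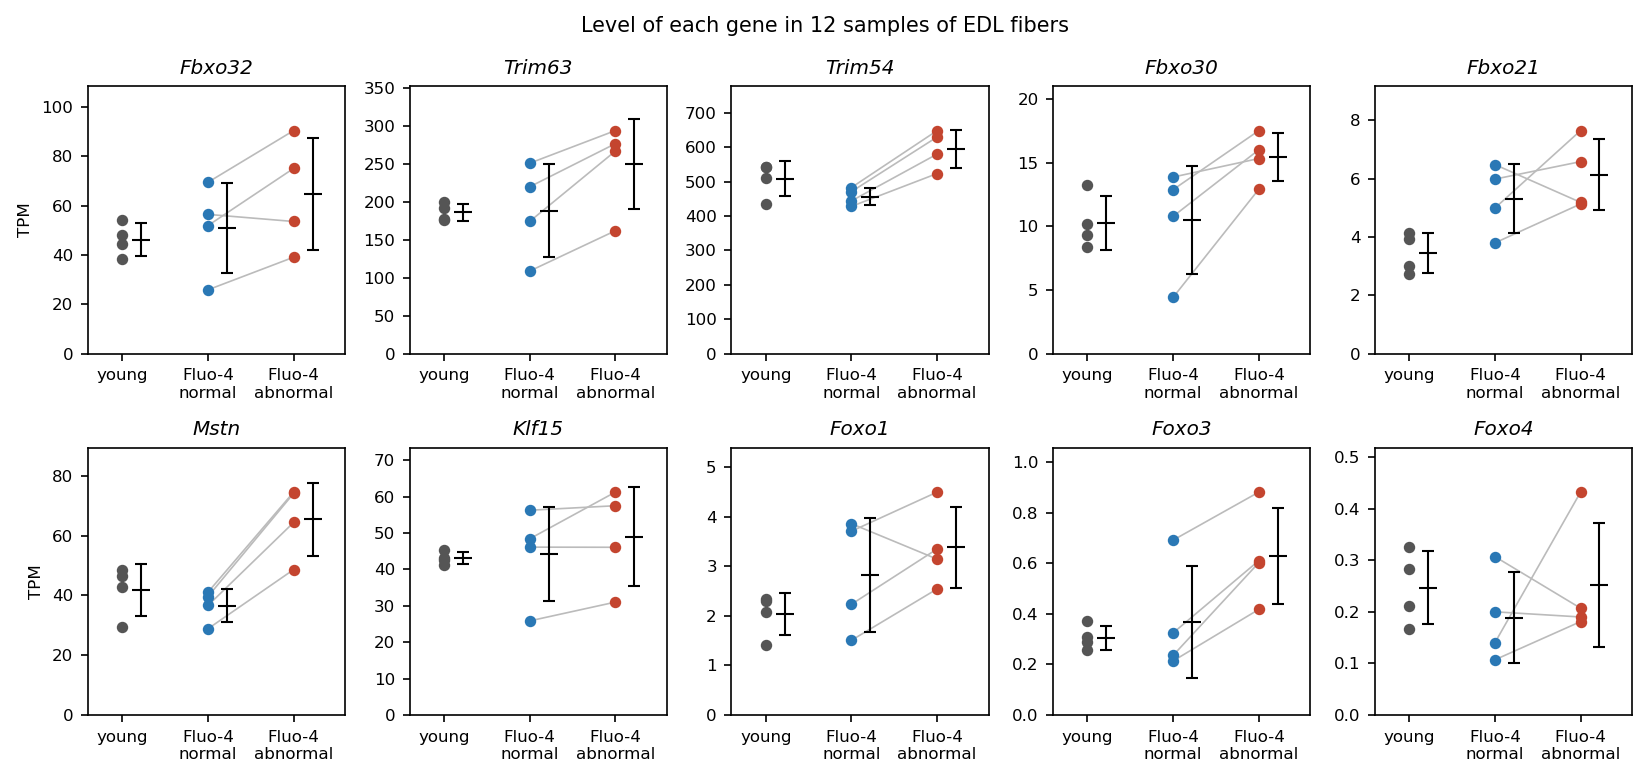
TPM (y axis, from 0, with its own scale for each gene) in young, Fluo-4 normal and Fluo-4 abnormal fibers, with 1 point per sample, gray lines between aged samples of the same replicate number, and bars for the mean ± SD (n = 4). All 4 Fluo-4 abnormal samples lie above all 4 Fluo-4 normal samples for *Mstn* and *Trim54*.

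Stretches of the promoters of the 3 genes that passed the test in a comparison, and of *Trim63*, the gene with a FoxO-type element in its window, are shown first. They are the 250 bases before the transcription start in RefSeq (table build GRCm38.p6), placed on GRCm39 by their single exact match and read 5′ to 3′ on the + strand, without the last 38, 45 and 40 bases for *Trim63*, *Trim54* and *Fbxo21*, which GENCODE annotates as gene. Capitals mark GTAAACA (the FoxO element), CAAAACA (an insulin response type element), AGAACA (the core of a glucocorticoid receptor site), CAGACA (a SMAD-binding element) and TATAAA on either strand. GTCTAGAC and CANNTG were searched as well and are left in lower case.
Mstn, chr1:53100549-53100798: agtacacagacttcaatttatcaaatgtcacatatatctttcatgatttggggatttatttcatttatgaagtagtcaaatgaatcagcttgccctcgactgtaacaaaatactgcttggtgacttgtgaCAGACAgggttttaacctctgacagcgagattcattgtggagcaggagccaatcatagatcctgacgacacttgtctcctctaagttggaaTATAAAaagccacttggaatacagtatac
Trim63, chr4:134042181-134042392: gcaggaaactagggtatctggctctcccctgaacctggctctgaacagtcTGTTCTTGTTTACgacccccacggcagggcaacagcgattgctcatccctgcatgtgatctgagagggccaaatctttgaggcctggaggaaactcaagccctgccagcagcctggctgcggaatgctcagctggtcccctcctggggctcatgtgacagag
Trim54, chr5:31273706-31273910: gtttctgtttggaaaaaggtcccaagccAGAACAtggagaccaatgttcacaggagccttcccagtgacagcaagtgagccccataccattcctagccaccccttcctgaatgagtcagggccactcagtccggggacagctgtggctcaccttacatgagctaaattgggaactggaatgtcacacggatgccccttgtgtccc
Fbxo21, chr5:118114585-118114794: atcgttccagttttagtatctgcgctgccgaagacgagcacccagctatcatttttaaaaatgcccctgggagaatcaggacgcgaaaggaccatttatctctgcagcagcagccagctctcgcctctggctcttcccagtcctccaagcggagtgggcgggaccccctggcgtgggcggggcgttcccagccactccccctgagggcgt

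In the *Trim63* window, a glucocorticoid receptor core began 200 bases before the start and a FoxO element 194 bases before it, so the pair were next to each other, both on the strand opposite to the gene. A TATAAA lay 31 bases before the start, within the part left out above. GTAAACA was found in 3.17% of the 32851 RefSeq promoter windows of the same length, AGAACA in 16.1% and TATAAA in 12.4%. The *Mstn* window held a SMAD-binding element at 120 bases, a TATAAA at 29 bases and 4 CANNTG, against shares of 17.1% for CAGACA and 66.2% for CANNTG over all windows. The *Trim54* window held 1 AGAACA, at 222 bases, and 2 CANNTG. The *Fbxo21* window held none of the 7 motifs, of which CAAAACA and GTCTAGAC occur in 5.56% and 0.167% of all windows. In all, 8 of the 10 genes matched the RefSeq table, and *Fbxo32* and *Foxo4* did not. A match of letters is a description of the window and says nothing about binding.

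The main comparison was between the Fluo-4 abnormal and normal fibers of aged mice. All 10 genes had a higher fitted value in Fluo-4 abnormal fibers, with a median log2 change of 0.30, beside a median of 0.10 over all genes, of which 69.6% were higher. Over genes with a mean of at least 5 TPM in a group, the median was 0.20. *Foxo1*, *Foxo3* and *Foxo4* did not pass that filter. With TMM-type factors 8 of 10 were higher, with a median of 0.14. Of the 10, 2 passed the test (limma, adjusted p under 0.05), *Mstn* and *Trim54*, both of them higher. Among all 14429 genes tested 9.35% were called and 7.36% were called higher, against 2 of 10 here. With the 5 TPM filter fewer genes were tested but more were called higher, 1419 against 1062. The share called higher was thus above 7.36% among such genes, and the 2 of 10 were not compared with that share. The same 2 were those whose groups did not overlap, which held for 11.5% of all genes in that direction.

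*Mstn* encodes myostatin and lies at chr1:53100799-53107240 on GRCm39. It stood at 48.6, 74.1, 74.5 and 64.4 TPM in Fluo-4 abnormal replicates 1–4 and at 28.8, 39.6, 41.1 and 36.6 TPM in Fluo-4 normal replicates 1–4. The young samples were at 46.4, 42.9, 48.4 and 29.3 TPM. Even the lowest of the abnormal samples exceeded every sample of both other groups, though it was only just above the highest young one. *Mstn* was 1.79-fold higher in Fluo-4 abnormal than in normal fibers (log2 change of TPM + 1 0.82 ± 0.17, SE, n = 4 and 4, limma adjusted p = 0.0114). Same-numbered pairs gave ratios of 1.69, 1.87, 1.82 and 1.76, a narrow range. The rise was 0.71 above the median of all genes, and it was still called with TMM-type factors (0.59, adjusted p = 0.0239) and with the *Myh4* share as a covariate (0.97, adjusted p = 0.0413). Without Fluo-4 abnormal replicate 2 the call was lost at a change of 0.75 (adjusted p = 0.0521), and over all 21 alternatives the adjusted p lay between 0.00404 and 0.256.

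*Trim54* encodes MuRF3, a RING-finger ligase of the sarcomere and microtubules, and lies at chr5:31273911-31298846. Its level was 524, 649, 630.4 and 581 TPM in Fluo-4 abnormal replicates 1–4, against 428, 483, 471 and 444 TPM in Fluo-4 normal replicates 1–4. The groups did not overlap, and each pair was higher in the abnormal sample. The young samples, at 510.3, 544, 544 and 437 TPM, overlapped both aged groups. *Trim54* was 1.30-fold higher in Fluo-4 abnormal than in normal fibers (log2 change 0.38 ± 0.087, SE, adjusted p = 0.0166). This call depended on scaling: with TMM-type factors the change was 0.15 (adjusted p = 0.332), and with the *Myh4* share as a covariate it was 0.42 (adjusted p = 0.0645). It was also lost without Fluo-4 abnormal replicate 2 (0.34, adjusted p = 0.0625) or 3 (0.35, adjusted p = 0.0501). Exons of *Trim54* overlap those of *Mpv17* by 869 bases and those of *Ucn* by 635 bases on the other strand, and the libraries keep no strand. *Mpv17* had means of 29.0 TPM in abnormal and 26.1 TPM in normal fibers, and *Ucn* of 2.88 and 2.01 TPM, far below *Trim54*.

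*Trim63* (chr4:134042393-134056948) encodes MuRF1, the ligase of thick-filament proteins that is a standard marker of atrophy. It was at 162, 267, 277 and 294 TPM in Fluo-4 abnormal replicates 1–4 and at 109, 174, 220.1 and 251 TPM in Fluo-4 normal replicates 1–4. Each abnormal sample was higher than the normal sample of the same number, by ratios of 1.49, 1.53, 1.26 and 1.17, but the groups overlapped widely. The young samples lay close together, at 178, 199.9, 192 and 177 TPM. Without pairing, the log2 change was 0.44 ± 0.23 (SE, adjusted p = 0.252). Without Fluo-4 normal replicate 1 it was 0.20 (adjusted p = 0.585). In the fit with the replicate number as a block, *Trim63* was called (0.44, adjusted p = 0.0405), making 3 of the 10 genes called, with *Mstn* (adjusted p = 0.0185) and *Trim54* (adjusted p = 0.0191). It was not called when TMM-type factors or the *Myh4* share were added to the block.

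*Fbxo32* (chr15:58039275-58078741, − strand) encodes atrogin-1, the F-box subunit that brings substrates to an SCF ligase. Its values were 39.1, 75.1, 90.5 and 53.6 TPM in Fluo-4 abnormal replicates 1–4, 25.8, 51.9, 69.5 and 56.5 TPM in normal replicates 1–4 and 44.5, 54.2, 48.0 and 38.3 TPM in young replicates 1–4. Within either aged group the samples differed more than the groups did, and replicate 1 was the lowest of each. The log2 change was 0.35 with a 95% interval of -0.26 to 0.96 (adjusted p = 0.472), and 3 of 4 pairs were higher in the abnormal sample. This interval covers both a small fall and a rise as large as that of *Mstn*, and without Fluo-4 normal replicate 1 the change was 0.062 (adjusted p = 0.914). *Fbxo32* shares 435 exonic bases with the antisense RNA *Gm15943*, listed at 0.450–1.14 TPM.

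*Fbxo30* (chr10:11156770-11173806) encodes MUSA1, an F-box ligase that BMP signaling holds down. It was at 12.9, 17.5, 15.3 and 16.0 TPM in Fluo-4 abnormal and at 4.42, 12.9, 13.9 and 10.8 TPM in Fluo-4 normal replicates 1–4. Normal replicate 1 stood far below the others, and its pair ratio of 2.92 exceeded those of the other pairs (1.36, 1.11 and 1.49). The log2 change was 0.61 ± 0.26 (SE, adjusted p = 0.159). Without normal replicate 1 it was 0.28 (adjusted p = 0.313). With the *Myh4* share as a covariate it was 1.25 (adjusted p = 0.0344), and with the replicate block added to that share 1.28 (adjusted p = 0.256).

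*Fbxo21* (chr5:118114795-118148269) encodes SMART, an F-box protein described as a FoxO-dependent ligase of atrophy. It showed another pattern, at 5.13, 7.65, 5.18 and 6.58 TPM in Fluo-4 abnormal replicates 1–4 and 3.79, 4.99, 6.48 and 5.98 TPM in normal replicates 1–4. The young samples were at 3.00, 2.72, 3.94 and 4.12 TPM, so that both aged groups had higher means and only the abnormal one was separate from the young. Between the aged groups the log2 change was 0.18, with a 95% interval of -0.21 to 0.58 (adjusted p = 0.565), and it was -0.0088 with TMM-type factors.

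The FoxO genes were expressed at low levels. *Foxo1* was at 2.54, 3.35, 3.14 and 4.50 TPM in Fluo-4 abnormal, 1.51, 2.23, 3.86 and 3.71 TPM in Fluo-4 normal and 2.31, 2.34, 2.08 and 1.41 TPM in young replicates 1–4. *Foxo3* was at 0.60, 0.61, 0.88 and 0.42 TPM in abnormal, 0.24, 0.33, 0.69 and 0.21 TPM in normal and 0.37, 0.29, 0.31 and 0.26 TPM in young replicates 1–4. The aged groups overlapped, for *Foxo3* only through normal replicate 3 and for *Foxo1* through normal replicates 3 and 4. From normal to abnormal fibers the log2 change was 0.23 for *Foxo1* (adjusted p = 0.556) and 0.26 for *Foxo3* (adjusted p = 0.168), and all 4 pairs were higher for *Foxo3*. Without Fluo-4 normal replicate 3 *Foxo3* was called (0.37, adjusted p = 0.0329), and without Fluo-4 normal replicate 1 the change of *Foxo1* was 0.044. At such levels the added 1 TPM shrinks the change, and the ratio of means of *Foxo3* was 1.71. *Foxo1* (chr3:52175757-52260642) shares 674 exonic bases with the antisense RNA *Gm20402*, which was listed at 0.766–7.58 TPM, about the level of *Foxo1*, so its values are uncertain without strand. *Foxo3* (chr10:42057837-42154007) shares 190 exonic bases with the antisense RNA *Gm66047*. *Foxo4* (chrX:100298073-100304479) ranged from 0.11 to 0.43 TPM over the 12 samples and had a log2 change of 0.074 (adjusted p = 0.592).

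*Klf15* (chr6:90438998-90452220) encodes the glucocorticoid-induced factor that switches on genes of amino acid breakdown. It was at 31.0, 61.3, 57.5 and 46.1 TPM in Fluo-4 abnormal and 25.9, 48.4, 56.3 and 46.1 TPM in Fluo-4 normal replicates 1–4. The groups overlapped almost entirely, whereas the young samples were tight at 42.6, 45.2, 41.3 and 43.0 TPM. The log2 change was 0.15, with a 95% interval of -0.33 to 0.64 (adjusted p = 0.699).

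**Figure D2:**
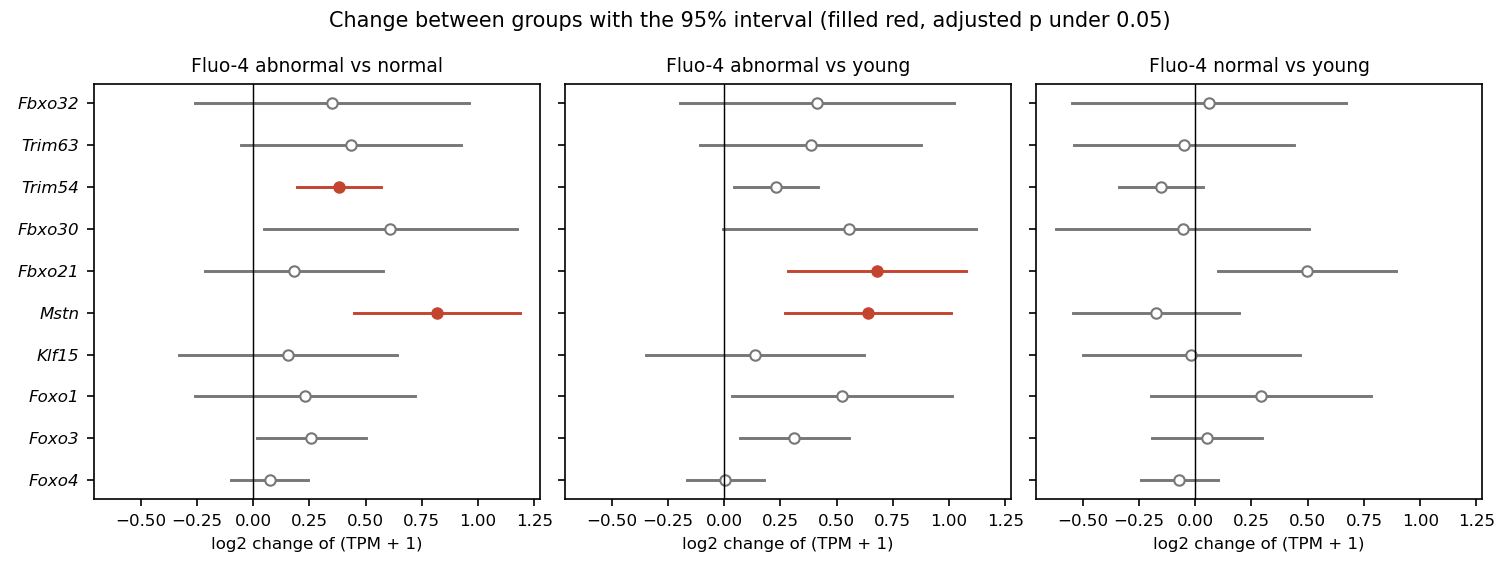
Log2 change of TPM + 1 (x axis) of each gene in the 3 comparisons, with the 95% interval of the limma fit over 12 samples. Filled red points passed the test, *Mstn* and *Trim54* between Fluo-4 abnormal and normal fibers, *Mstn* and *Fbxo21* between Fluo-4 abnormal and young fibers, and 0 genes between Fluo-4 normal and young fibers.

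The Fluo-4 abnormal fibers were next compared with young fibers. All 10 genes had a higher fitted value, with a median log2 change of 0.40 beside 0.074 over all genes, of which 66.7% were higher. With the 5 TPM filter the median over all genes was 0.12. With TMM-type factors 8 of 10 were higher, with a median of 0.25. *Mstn* and *Fbxo21* were called, 2 of 10, where 8.5% of all genes were called and 6.09% were called higher. The share called higher was larger with the 5 TPM filter, where fewer genes were tested and 962 were called higher, against 879. *Mstn* was 1.57-fold higher (log2 change 0.64 ± 0.17, SE, n = 4 and 4, adjusted p = 0.0348). *Fbxo21* was 1.78-fold higher (0.68 ± 0.18, SE, adjusted p = 0.0360). Neither call was firm, since with TMM-type factors the adjusted p was 0.0575 for *Mstn* (0.47) and 0.0647 for *Fbxo21* (0.53), and limma then called 0 of the 10, with 3 at an unadjusted p under 0.05. Over 19 alternatives *Mstn* lost its call in 11 and *Fbxo21* in 7. Leaving out any 1 of the 4 young samples ended the call of *Fbxo21* (adjusted p = 0.0982, 0.0948, 0.0563 and 0.0564), as did leaving out Fluo-4 abnormal replicate 2 (0.107) or 4 (0.0918). *Mstn* lost its call without young replicate 1 (0.0571), 2 (0.0757) or 4 (0.102), or Fluo-4 abnormal replicate 2 (0.115), 3 (0.101) or 4 (0.0898). The immune marker sum, of which *Lyz2* was the largest part in aged samples, was also higher in all aged samples than in young ones. Its part in these changes was not tested.

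Of the 10 genes, 4 had abnormal samples that were all above all young samples, *Fbxo21*, *Mstn*, *Foxo1* and *Foxo3*, which held for 12.2% of all genes. For *Foxo1* the log2 change was 0.52 (adjusted p = 0.182), with a ratio of means of 1.66. For *Foxo3* it was 0.31 (adjusted p = 0.109), with a ratio of means of 2.05. *Trim54* had a change of 0.23 (adjusted p = 0.128). With the replicate block its adjusted p was 0.0449, but that fit grouped young with aged samples by number, a pairing that no source gives. *Trim63* (0.39, adjusted p = 0.348), *Fbxo32* (0.41, adjusted p = 0.427), *Fbxo30* (0.56, adjusted p = 0.223) and *Klf15* (0.14, adjusted p = 0.762) did not pass, and *Foxo4* had a change of 0.0040. With the *Myh4* share as a covariate *Fbxo30* was called (0.89, adjusted p = 0.0317).

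Fluo-4 normal fibers of aged mice were then compared with young fibers. Only the aged fibers are described as sorted by staining, so age and sorting cannot be told apart in this comparison. None of the 10 genes passed the limma test, and 1, *Fbxo21*, had an unadjusted p under 0.05, beside 1865 of all genes. The share of genes called was 1.15%, and 0 of the 10 were without overlap between the groups, beside 7.98% of all genes. *Fbxo21* had the largest fitted change of the 10, at 0.50 with a 95% interval of 0.10 to 0.89 (limma adjusted p = 0.243). *Mstn* was at -0.18 (95% interval -0.54 to 0.19) and *Trim54* at -0.15 (-0.34 to 0.035). *Fbxo32*, *Trim63*, *Fbxo30* and *Klf15* had fitted changes between -0.055 and 0.063, but their intervals reached beyond 0.44 in either direction, so a moderate change was not detectable with 4 samples a group. The 3 comparisons share their samples and are not independent.

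The spread between samples was itself uneven. The coefficient of variation of *Klf15* was 3.76% in young, 29.3% in Fluo-4 normal and 27.8% in Fluo-4 abnormal fibers, and that of *Trim63* was 6.02%, 32.8% and 23.9%. *Mstn* (20.6%, 14.9% and 18.6%) and *Trim54* (9.95%, 5.47% and 9.41%) did not share this widening. Fluo-4 normal replicate 1 was among the lowest 3 of the 12 samples for 9 of the 10 genes and was the lowest for 6. Fluo-4 abnormal replicate 2 was among the highest 3 for 9 genes and the highest for 5. These were also the samples with the smallest and the largest scaling factor, 0.809 and 1.17.

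**Figure D3:**
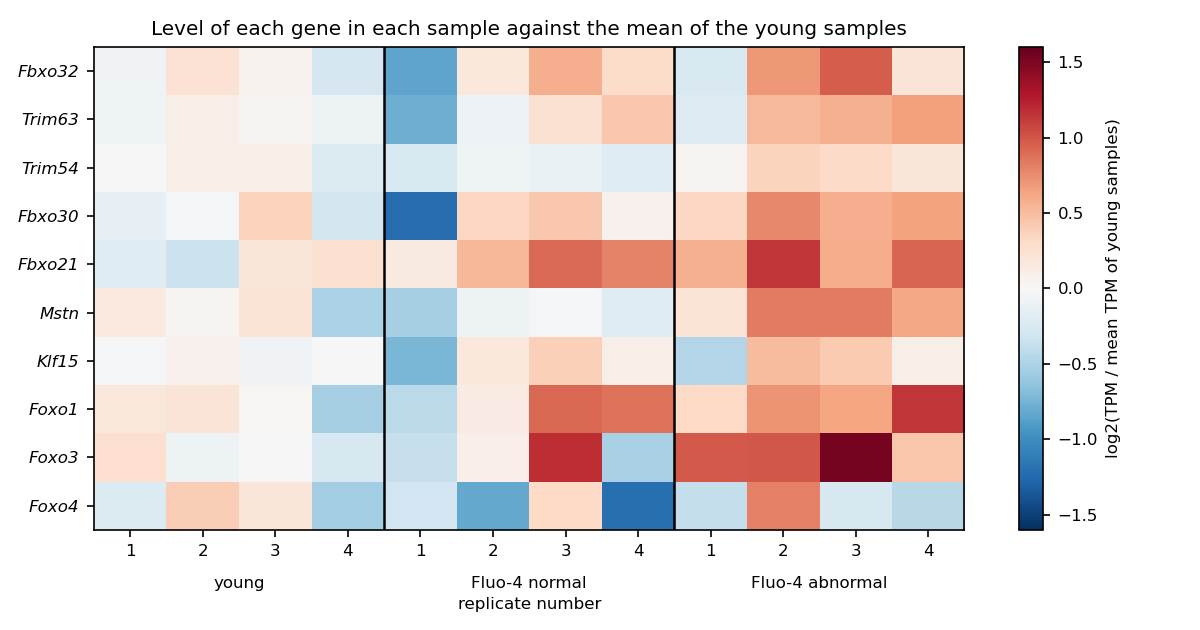
Log2 ratio of the TPM of each gene (rows) in each of the 12 samples (columns, by group and replicate number) to the mean of the young samples, in blue below and red above it. Fluo-4 normal replicate 1 is blue for 9 of 10 genes, all but *Fbxo21*, and the Fluo-4 abnormal samples are red throughout for *Mstn*, *Trim54*, *Fbxo30*, *Fbxo21*, *Foxo1* and *Foxo3*.

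To see which genes varied together apart from the group differences, deviations from the group means of log2(TPM + 1) were compared over the 12 samples. *Fbxo32* followed *Klf15* (r = 0.942) and *Trim63* (r = 0.844), and *Trim63* followed *Foxo1* (r = 0.858). *Mstn* followed *Trim54* (r = 0.932), but *Trim54* and *Trim63*, both of the MuRF family, were less alike (r = 0.498). These correlations are a description over samples scaled to the same total, and a sample with a large scaling factor raises many genes at once. As a ratio within each sample, *Trim54* over *Mstn* was 8.46–10.8 in Fluo-4 abnormal, 11.5–14.9 in Fluo-4 normal and 11.0–14.9 in young fibers. The abnormal range did not overlap the others, though 10.8 and 11.0 lay close. Scaling of a sample does not alter this ratio. Both genes had been called between the aged groups, and how many other pairs of genes separate so was not counted. *Trim63* over *Fbxo32* was 3.06–5.49, 3.17–4.45 and 3.69–4.62, with full overlap.

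Among 5993–5994 other genes with a mean of at least 5 TPM, the patterns over the 12 samples closest to *Mstn* were those of *Sync* (r = 0.970) and *Faf1* (r = 0.968). Those closest to *Trim54* were *Eif4ebp2* (r = 0.978) and *Ergic1* (r = 0.976), to *Trim63* *Psmd3* (r = 0.948) and *Arrdc3* (r = 0.940), and to *Fbxo32* *Sorbs3* (r = 0.943) and *Bsdc1* (r = 0.933). *Fbxo30* was most like *Slc38a2* (r = 0.962) and *Usp25* (r = 0.960), *Fbxo21* like *Srfbp1* (r = 0.935) and *Gtf3c2* (r = 0.917), and *Klf15* like *Pik3ip1* (r = 0.949) and *Hes1* (r = 0.949). For the FoxO genes they were *Cog6* (r = 0.939) and *Slc25a25* (r = 0.919) for *Foxo1*, *Mospd1* (r = 0.949) for *Foxo3*, and *Pdgfa* (r = 0.930) and *Ifrd2* (r = 0.875) for *Foxo4*.

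The pathway around *Mstn* was examined with a list of its ligands, inhibitors, receptors and SMAD proteins. Of its 20 tested genes, 7 rose between Fluo-4 normal and abnormal fibers and 0 fell, and 6 of 19 rose when *Mstn* itself was left out. Of all genes 7.36% were called higher, and a larger share with the 5 TPM filter, where fewer were tested and 1419 were called higher, against 1062. The median log2 change of the list was 0.44, beside 0.10 over all genes and 0.20 over all genes with the 5 TPM filter. With TMM-type factors 4 rose, *Mstn*, *Gdf11*, *Fstl3* and *Acvr2a*, with a median of 0.25, beside 306 of all 14429 genes. *Acvr2a*, which encodes a receptor that binds myostatin, was at 8.16, 13.7, 12.7 and 9.96 TPM in abnormal and 2.29, 4.72, 4.96 and 3.57 TPM in normal replicates 1–4, without overlap. It was 2.86-fold higher (log2 change 1.32 ± 0.21, SE, adjusted p = 0.00278). The young samples, at 6.94, 7.49, 7.17 and 5.11 TPM, lay between the aged groups and overlapped neither. Against them *Acvr2a* had a change of 0.65 in abnormal (adjusted p = 0.0724) and of -0.68 in normal fibers (adjusted p = 0.144). *Acvr2a* shares 3081 exonic bases with *Orc4* on the other strand, which had a log2 change of 0.056. *Orc4* had means of 25.8 TPM in abnormal and 24.8 TPM in normal fibers, above *Acvr2a*, so the values of *Acvr2a* are uncertain without strand. *Fstl3*, a secreted inhibitor of myostatin and activins, was at 2.37, 1.60, 1.65 and 2.25 TPM in abnormal, 0.69, 0.92, 0.64 and 0.88 TPM in normal and 0.36, 0.43, 0.13 and 0.29 TPM in young replicates 1–4. The 3 groups of *Fstl3* did not overlap, and it was 2.50-fold higher in abnormal than in normal fibers (0.73 ± 0.13, SE, adjusted p = 0.00464). Its change from young to abnormal fibers was 1.18 (adjusted p = 0.000264). The other genes called, named after their values were seen, were *Gdf11* (0.64), the myostatin relative, *Ltbp3* (0.78), *Tgfbr1* (0.85) and *Smad2* (0.57). Against young fibers 3 of the 20 were called higher in abnormal fibers, *Mstn*, *Gdf11* and *Fstl3*, where 6.09% of all genes were, and with TMM-type factors 1 was, *Fstl3*, with a median of 0.036 over the list. In Fluo-4 normal against young fibers limma called 0, with 4 at an unadjusted p under 0.05.

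The BMP list, the input that restrains *Fbxo30*, had 0 of 16 genes called by limma between Fluo-4 abnormal and normal fibers, and 2 had an unadjusted p under 0.05. *Bmpr1a* (0.36, adjusted p = 0.102), *Smad5* (0.50, adjusted p = 0.121) and *Hdac4* (0.49, adjusted p = 0.229) had the smallest p. *Id2*, a transcriptional target of BMP signaling, was called lower in both aged groups against young fibers. It was the 1 gene of the 16 called in abnormal and in normal fibers, where 8.5% and 1.15% of all genes were called. Changes in abnormal and normal fibers were 0.26 and 0.17 for *Id1*, -0.33 and -0.0092 for *Id3*, and 0.033 and 0.019 for *Smad6*, none of them called. *Id2* was at 32.0, 36.4, 35.2 and 29.7 TPM in young, 6.41, 17.8, 16.2 and 14.9 TPM in Fluo-4 normal and 10.2, 9.66, 8.06 and 10.4 TPM in Fluo-4 abnormal replicates 1–4. All aged samples lay below all young ones, and the log2 change was -1.29 for normal (adjusted p = 0.0173) and -1.70 for abnormal fibers (adjusted p = 0.000756). With TMM-type factors these were -1.25 (adjusted p = 0.00482) and -1.86 (adjusted p = 0.000109). The call in abnormal fibers held in all 19 alternatives, and that in normal fibers was lost in 5, with only the 2 groups (adjusted p = 0.103) and without young replicate 1 (0.0564), 2 (0.0940) or 3 (0.0815) or Fluo-4 normal replicate 4 (0.0603).

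Among 21 genes between insulin or IGF-1 and FoxO, *Akt2* and *Rictor* rose in Fluo-4 abnormal against normal fibers and 0 fell, a share near the 7.36% of all genes called higher. With TMM-type factors limma called 0 of the 21, and 3 had an unadjusted p under 0.05. Over 21 alternatives *Akt2* lost its call in 13 and *Rictor* in 14. *Akt2*, the main Akt kinase of insulin signaling in muscle, was at 94.8, 95.1, 94.4 and 83.0 TPM against 66.1, 75.0, 78.5 and 74.1 TPM (log2 change 0.32, adjusted p = 0.0256). A pseudogene copy matches 31.5% of its transcript. *Rictor*, a subunit of the mTORC2 kinase complex that phosphorylates Akt, had a change of 0.72 (adjusted p = 0.0309). *Irs1*, the insulin receptor substrate, had a change of 0.53 (adjusted p = 0.0874). Of 22 FoxO target genes other than ligases, 2 rose, *Map1lc3b* (0.35, adjusted p = 0.00539) of autophagosomes and *Bcl6* (0.47, adjusted p = 0.0443), a transcriptional repressor, again near the 7.36% of all genes. *Bcl6* lost its call in 17 of 21 alternatives, and its mean was 16.9 TPM in both abnormal and young fibers and 12.0 TPM in normal fibers. *Sod2*, the mitochondrial superoxide dismutase, fell by 0.30 on the log2 scale (adjusted p = 0.0391). The median of this list, 0.11, was near that of all genes, and with TMM-type factors *Sod2* and *Pnpla2*, a triglyceride lipase, fell and 0 rose. Against young fibers the median in abnormal fibers was 0.22, beside 0.074 over all genes. There 3 of the 22 were called higher, *Map1lc3b* and, named after their values were seen, *Cdkn1a* (1.435) and *Gabarapl1* (0.45), and *Sod2* lower. Of all genes 6.09% were called higher. With TMM-type factors 2 were called higher and 2 lower, with a median of 0.053. Reads of *Map1lc3b* can be split with copies that match up to 31.7% of its transcript. For *Sod2* the near-identical stretches each cover at most 3.3% of the transcript.

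Of 19 genes of the glucocorticoid receptor and KLF15 axis, 3 rose and 1 fell, where 9.35% of all genes were called and 7.36% were called higher. Both shares were larger with the 5 TPM filter. *Tsc22d3* (GILZ), a direct target of the receptor, rose (0.34, adjusted p = 0.0230), as did *Nr3c1* (0.46), the receptor itself, named after its value was seen. The KLF15 target *Bcat2*, which starts branched-chain amino acid breakdown, rose (0.44, adjusted p = 0.0138), whereas *Gpt*, alanine aminotransferase, fell by 0.46 on the log2 scale (adjusted p = 0.00877). With TMM-type factors only *Gpt* was called, and over 21 alternatives *Tsc22d3* lost its call in 11. *Klf15* itself, at 0.15, was not called in either fit. Against young fibers the median of the list in abnormal fibers was 0.34, beside 0.074 over all genes. There 4 of the 19 were called higher, *Tsc22d3* and, named after their values were seen, *Per1* (0.81), *Glul* (0.71) and *Mt2* (1.41), and 0 lower. Of all genes 6.09% were called higher. With TMM-type factors 1 was called higher and 1 lower, with a median of 0.20.

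**Figure D4:**
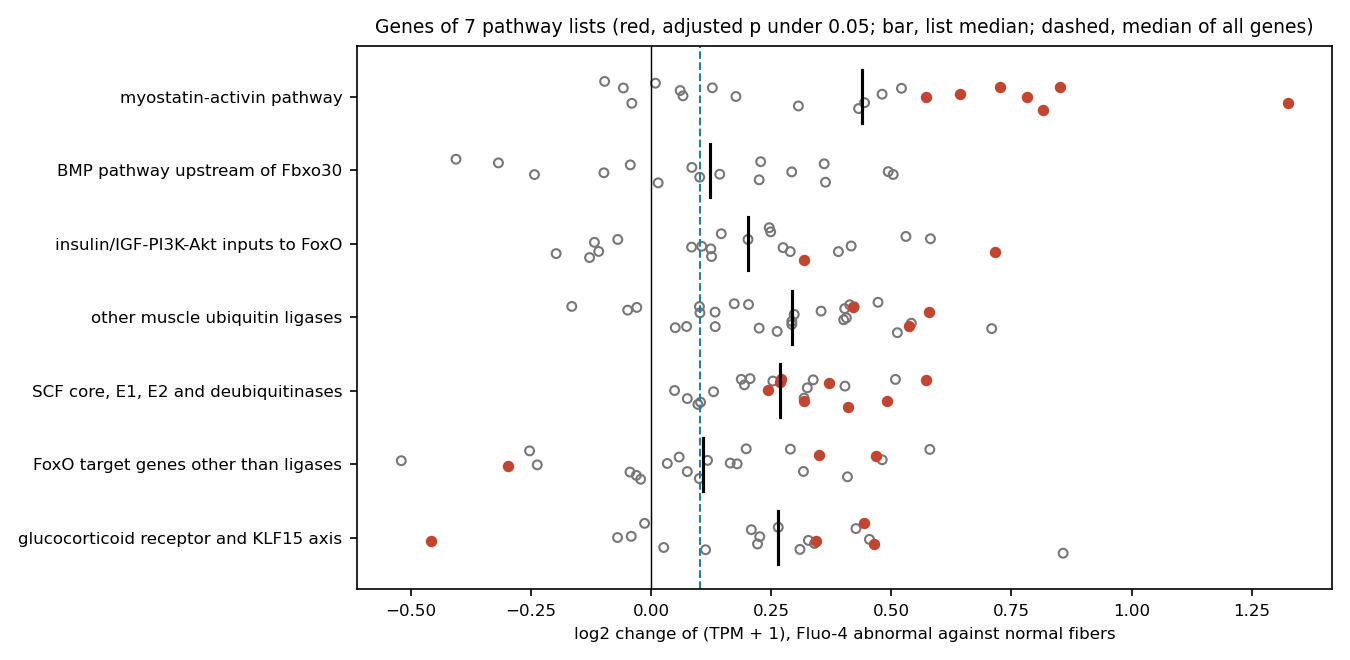
Log2 change of TPM + 1 between Fluo-4 abnormal and normal fibers (x axis) for the tested genes of 7 pathway lists (rows), with genes past the threshold in red, a black bar for the median of the list and a dashed line at the median of all genes, 0.10. The myostatin-activin list has its median at 0.44, and the FoxO target list at 0.11.

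In the list of SCF subunits, E1, E2 and deubiquitinating enzymes, 22 of 22 genes had a higher fitted value in Fluo-4 abnormal than in normal fibers. Of these 8 were called, where 7.36% of all genes were called higher. That share was larger with the 5 TPM filter, where fewer genes were tested and 1419 were called higher, against 1062. The median of the list was 0.27, beside 0.10 over all genes and 0.20 over all genes with the 5 TPM filter. With TMM-type factors 15 of 22 were higher, 2 were called and the median was 0.043. These 2 were *Ube2d1* and *Ube2g2*, both E2 enzymes, which hand ubiquitin to ligases. *Ube2d1* was at 255, 311, 269 and 259 TPM in abnormal and 169, 179, 191 and 194 TPM in normal replicates 1–4 (log2 change 0.57 ± 0.072, SE, adjusted p = 0.00073). *Ube2g2* had a change of 0.49 (adjusted p = 0.00365) and *Ube2d3* of 0.27 (adjusted p = 0.0186). A near-identical copy matches 11.7% of the *Ube2d3* transcript. Among 29 other muscle ligases 3 rose, *Klhl40*, *Nedd4* and *Mdm2*, a share near that of all genes, and with TMM-type factors 2 did, with a median of 0.095. *Klhl40*, a substrate adaptor of cullin-3 ligases that stabilizes thin-filament proteins, was at 186, 213, 192 and 246 TPM against 124, 138, 156 and 139.9 TPM (0.58, adjusted p = 0.00248). It shares 741 exonic bases with *Hhatl* on the other strand. *Nedd4* (0.54, adjusted p = 0.0139), like *Klhl40*, was also called with TMM-type factors, and *Mdm2* (0.42, adjusted p = 0.0299), the ligase of p53, was not. *Mib1*, a ligase of Notch ligands, was the 1 gene of this list called between Fluo-4 normal and young fibers (0.89, adjusted p = 0.0484), where 1.15% of all genes were. That call held with TMM-type factors (0.94, adjusted p = 0.0110) but was lost in 12 of 19 alternatives, among them those without any 1 of the young samples or without Fluo-4 normal replicate 2, 3 or 4 (adjusted p up to 0.156). *Mib1* was also higher in abnormal than in young fibers (1.30, adjusted p = 0.00168), where TMM-type factors gave 1.13 (adjusted p = 0.000968). Over the alternatives, the counts called between Fluo-4 abnormal and normal fibers were 0–8 for the myostatin-activin list, 0–11 for the SCF list and 0–7 for the other ligases, with 0 in all lists when block and *Myh4* share were fitted together, a limma fit that called 0 of all genes.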

How the data were processed

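RNA-seq of 12 samples of isolated EDL fibers was analyzed (4 young, 4 Fluo-4 normal and 4 Fluo-4 abnormal). Libraries were made by the authors with SMART-Seq v4, starting at 10 ng of RNA. DRAGEN 4.3 was run against GRCm39, and the authors deposited its TPM per gene symbol, which summed to 1000000 in each sample. The annotation release is not given in the sources used here. SMART-Seq v4 keeps no strand. Exons shared with a gene on the other strand are not noted above for every named gene. Among those left out, *Id2* shares 796 exonic bases with *Gm59395* and *Mib1* 222 with *Mir133a-1hg*. Of 55367 symbols, 114 on several lines were summed.

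Values were transformed to log2(TPM + 1), which understates the change of low genes, and the 3 groups were fitted together with limma 3.58.1 (R 4.3.3) with a variance trend. The fit covered 14429 protein-coding and mitochondrially-encoded genes with a mean of at least 0.02 TPM in a group, and p-values were adjusted over all of them by the Benjamini-Hochberg method. Calls were made at an adjusted p under 0.05. Genes named were the 10 members, the 3 genes per pathway list with the smallest p (mean of at least 1 TPM), list genes called between Fluo-4 normal and young fibers, 4 myosins and the 2 genes most like each member, of which 1 is not reported here. The members and lists were chosen with earlier results of these data known.

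Aged samples share replicate numbers, which no source ties to a mouse. Over 3035 genes with a mean of at least 20 TPM, same-numbered aged samples deviated together from the means of their groups (r = 0.55, 0.48, 0.48 and 0.34, and -0.47 to 0.30 between different numbers), so the numbers were taken to pair these samples, and the replicate block used them. Against young fibers the block also grouped young samples with aged ones of the same number. These came from mice of different ages, and that grouping was not checked. The main fit used the group only and treated the aged samples as unpaired. Adjusted p are from that fit unless a setting is named, also those of the pathway genes. Other settings tried were a pseudocount of 0.1, TMM-type factors (30% of ratios and 5% of intensities trimmed), TPM rescaled with mitochondrially-encoded genes removed, no filter or 5 TPM, all symbols, only 2 groups, the block, the *Myh4* share, sample weights, no variance trend and leaving out each sample. The block with TMM-type factors and the block with the *Myh4* share were added after seeing the data. Copies were searched with BLAST 2.17.0 and gene overlaps in GENCODE. Tables and plots used Python 3.11.15 with matplotlib 3.10.9, numpy 2.4.6 and pandas 2.3.3.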

Additional observations from a re-analysis of the deposited data

Results flagged for a closer look

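*Foxo4* in Fluo-4 abnormal replicate 2 was at 0.432 TPM, while the other 3 abnormal samples were at 0.181–0.207 TPM. Its gap to the nearest of them was 0.896 of the range of the group, above Dixon's critical value for 4 samples. It was the 1 such value in 30 groups of 4 checked, and chance alone gives about 1 in 20.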

How the results depend on the processing

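Without read counts, the precision of low genes such as *Foxo3* and *Foxo4* is unknown. Between Fluo-4 abnormal and normal fibers, 2 genes were called, 1 with TMM-type factors (*Mstn*), 1 with the replicate block and TMM-type factors, 0 with replicate block plus *Myh4* share, and 0–3 without single samples, with 0 without Fluo-4 abnormal replicate 2, 1 without Fluo-4 abnormal replicate 3 and 3 without Fluo-4 normal replicate 3. Between Fluo-4 abnormal and young fibers, 2 were called, 0 with TMM-type factors, 1 with no filter, all symbols, only the 2 groups or no variance trend, and 0–2 without single samples. The replicate block alone changed the call of *Trim63* between the aged groups. It also changed that of *Trim54* against young fibers, where young and aged samples were grouped by number alone, and that of no other member. Some changes reversed. With TMM-type factors, *Fbxo21* (-0.0088) and *Klf15* (-0.067) reversed between the aged groups, also with the replicate block, and against young fibers *Foxo4* (-0.030) and *Klf15* (-0.035) in abnormal and *Trim63* (0.0014) and *Klf15* (0.033) in normal fibers. *Foxo4* against young fibers was also -0.0017 without mitochondrially-encoded genes, -0.0056 with a pseudocount of 0.1 and -0.0020 with the *Myh4* share, where *Fbxo32* (-0.16) and *Foxo3* (-0.0036) reversed in normal fibers. Between the aged groups, the *Myh4* share gave 0.21 for *Id2*, 0.29 for *Myh1* and 1.15 for *Myh2*, and with the replicate block as well 0.52 for *Id2*, 0.79 for *Myh2* and -0.036 for *Foxo4*. *Klf15* in normal against young fibers was 0.012 without mitochondrially-encoded genes, and sample weights gave 0.097 for it, 0.12 for *Trim63* and 0.084 for *Fbxo30*. Without single samples, changes between the aged groups ranged from -0.078 to 0.35 for *Klf15* and from -0.78 to 0.35 for *Myh2*, those of abnormal against young fibers from -0.062 to 0.034 for *Foxo4*, and those of normal against young fibers from -0.11 to 0.35 for *Fbxo32*, -0.21 to 0.19 for *Trim63*, -0.21 to 0.27 for *Fbxo30*, -0.054 to 0.11 for *Foxo3* and -0.15 to 0.21 for *Klf15*. Over all genes, 1349 were called between the aged groups, 848 with TMM-type factors, 820 with the *Myh4* share, 566 with only the 2 groups, 606 without Fluo-4 abnormal replicate 2, 485 with the replicate block and TMM-type factors and 0 with replicate block plus *Myh4* share. Between Fluo-4 abnormal and young fibers 1227 were called, and 576 to 1192 without single samples. Between Fluo-4 normal and young fibers 166 were called, and 45 to 358 over the alternatives. The cause of these shifts was not tested.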
